A study of Mus musculus with 48 samples.

Results

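Lymphatic endothelial cells (LECs) of naive mouse lymph nodes were compared with blood endothelial cells (BECs) of the same kind of lymph node. The samples were chosen by their titles, which give the cell type and mark naive mice, so the comparison holds 12 of the 48 array strips of the series: 6 strips of naive LECs and 6 strips of naive BECs. The 2 strips of a biological replicate were averaged, which gave 3 LEC replicates against 3 BEC replicates. The study asked how B cell lymphoma changes the stromal cells of lymph nodes, and it profiled 4 sorted fractions on Illumina bead arrays in naive mice and in tumor mice, which had received Eu-Myc lymphoma B cells by intravenous transfer. LECs were sorted as CD31+gp38+ cells and BECs as CD31+gp38- cells, both from naive wild-type animals that had received no lymphoma cells, after depletion of CD45+ leukocytes and exclusion of Ter119+ and dead cells. The other fractions are fibroblastic reticular cells (FRCs, CD31-gp38+) and double negative (DN) cells. Cervical, axillary, brachial and inguinal nodes of adult mice of both sexes were digested together, and each array sample held 80 ng of RNA pooled from 4-6 sorting experiments. A replicate is therefore a pool, and the labels do not say which animals entered it, so the p-values measure the spread between such pools.

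Lymphatic and blood endothelium share a common endothelial program but line different vessels. LECs line the sinuses that carry lymph, antigen and migrating dendritic cells through the node, and their identity depends on the transcription factor Prox1. BECs line arteries, capillaries and veins, among them the high endothelial venules (HEVs), where naive lymphocytes roll on sulfated sugars that L-selectin recognizes and enter the node.

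All 12 LEC strips of the series lay on 1 slide and all 12 BEC strips on another, and so cell type and slide cannot be told apart in any difference given here. Signals are log2 values after quantile normalization. A gene was taken as measured when its mean in LECs or BECs was above a background level of 5.72, which left 11226 genes. LEC replicates correlated with each other at 0.981 to 0.984, and BEC replicates 1 and 3 at 0.990. BEC replicate 2 stood apart from both, at 0.964 and 0.967, while LEC and BEC replicates correlated at 0.894 to 0.929. Replicate 2 was the highest of each cell type in summed transcripts of salivary and lacrimal glands, which lie next to cervical nodes. The secretoglobin gene Scgb1b2 gave 4.87, 14.62 and 5.05 in the LEC replicates, against 5.06, 15.30 and 5.07 in the BEC replicates, so 1 replicate of each cell type was high. The summed linear signal of 24 gland genes, a list chosen after the data were seen, was 393000, 430500 and 235400 in the LEC replicates. In the BEC replicates it was 217400, 530000 and 228500. LEC replicate 1 was thus near LEC replicate 2 in this sum, which was 351700-479400 in naive FRCs and 443700-774200 in naive DN cells. Of the 22 gland genes tested, 0 were called. In LEC replicate 2 the summed signal of 26 blood endothelial genes was also higher (188600) than in LEC replicates 1 and 3 (112300 and 113900), against 446300-464100 in BECs. Many values that move by much without replicate 2 are also given without it, but some are given with all replicates only. In sorted bulk RNA, fewer cells of a type and less RNA per cell cannot be told apart.

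Naive LECs differed from naive BECs over a wide part of the transcriptome. Differences were called when the adjusted p in limma was below 0.05 and the change at least 2-fold. By this rule 1062 genes were higher in LECs (9.46% of the genes tested) and 868 were lower (7.73%), while the median difference of all genes was 0.04 on the log2 scale. Of these, 420 higher and 295 lower genes changed at least 4-fold. The 3 LEC values lay apart from the 3 BEC values in 1917 of the 1930 called genes, and in 50.3% of all genes tested. Without replicate 2 of both cell types 2240 genes were called, and 1828 of the 1930 were among them. For 152 of the genes higher in LECs no BEC replicate was above background, and for 107 of the lower genes no LEC replicate was. Folds of such genes are given as at least the fold against the background level. Where only some replicates of the lower group were above background, their number is given. Each gene was read from its brightest probe. A probe or replicate that changes the size or call is given beside many named genes, but not beside all of them.

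**Figure D1:**
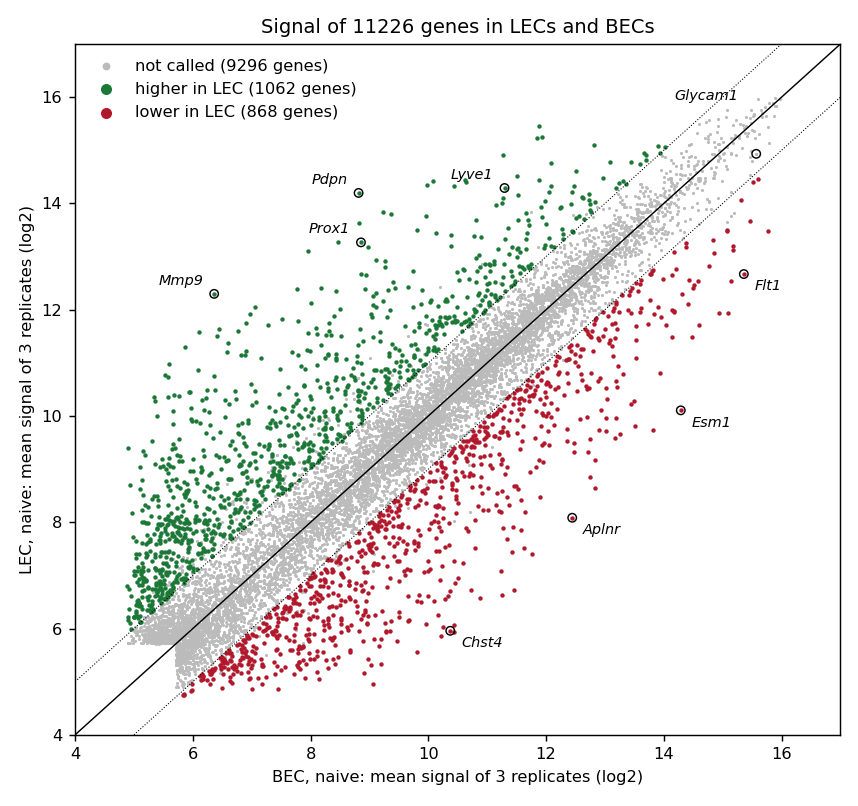
Mean log2 signal of 11226 genes over 3 naive LEC replicates (vertical axis) and 3 naive BEC replicates (horizontal axis). Each point is a gene; green points are the 1062 genes called higher in LECs, red points the 868 called lower, the solid line marks equal signal and the dotted lines a 2-fold difference.

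The lymphatic defining genes Prox1 and Lyve1 fitted the labels of both fractions, whereas Glycam1, given below, was not called. Prox1, the lymphatic master regulator, gave 13.20, 13.23 and 13.37 in LECs, against 9.32, 8.89 and 8.36 in BECs. Every LEC value was above every BEC value, with a difference of 4.41 ± 0.24 (SE), or 21.3-fold, and an adjusted p of 4.23e-05. Lyve1, the hyaluronan receptor of lymphatic endothelium, gave 14.42, 14.22 and 14.23 in LECs and 11.53, 11.49 and 10.87 in BECs, again without overlap and 7.98-fold higher in LECs (adjusted p = 8.92e-05). Neither gene was absent from the BEC samples, where both stayed above the background level in all 3 replicates, whereas FRCs averaged 6.26 for Prox1 and 6.51 for Lyve1. The sorted fractions were at least 95% pure. The part of stray LECs in the BEC values of these and other lymphatic genes was not tested. Pdpn, which encodes the gp38 antigen used for the sort, averaged 14.20 ± 0.17 in LECs and 8.82 ± 0.32 in BECs (SD, n = 3 each), and reached 14.41 in FRCs. Since the sort used gp38, that difference is a check and not a finding.

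Pecam1, the CD31 antigen present on both fractions, gave 13.55, 13.57 and 13.73 in LECs and 14.48, 14.44 and 14.88 in BECs. The LEC values were the lower ones without overlap, and the difference of -0.99 ± 0.16 fell just short of 2-fold (adjusted p = 0.00345), reaching -1.04 without replicate 2 of both cell types. Glycam1, the HEV mucin that carries L-selectin ligands, gave 14.91, 14.80 and 15.10 in LECs and 15.69, 15.26 and 15.76 in BECs. Both were near the upper end of the signal range, 2 of the BEC values above 15.58, and above the means of FRCs (12.40) and DN cells (12.89). Glycam1 was 1.55-fold lower in LECs than in BECs (adjusted p = 0.0289), below the fold required, and signals this high limit what can be said of its size. Ptprc, which encodes the CD45 antigen used to deplete leukocytes, was at background in LECs (mean 4.93) and in BECs (5.26).

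**Figure D2:**
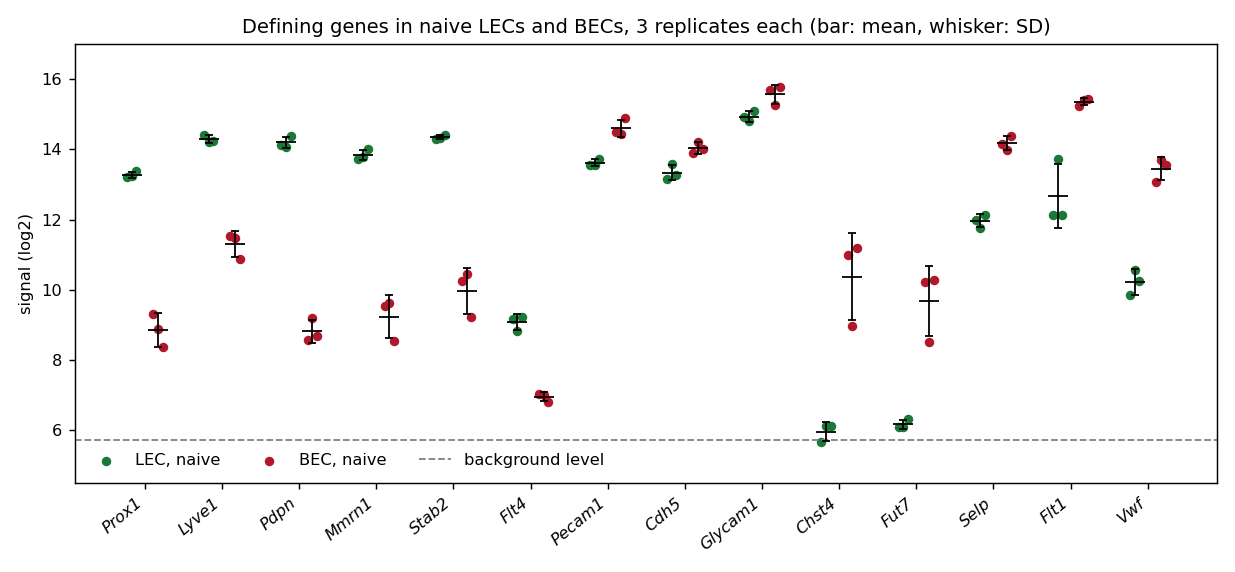
Log2 signal of 14 defining genes in the 3 naive LEC replicates (green) and the 3 naive BEC replicates (red), with bars for the mean, whiskers for the SD and a dashed line at the background level of 5.72. Lymphatic genes such as Prox1 and Mmrn1 were far higher in LECs, Glycam1 was high in both, and Chst4 was near background in LECs.

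Promoter windows are shown for Prox1 and Mmrn1, which were high in LECs, and for Chst4 and Fut7, a pair of enzymes of the same HEV pathway that were low in them. The sequences are RefSeq windows on GRCm38.p6, from 250 bases before to 50 after an annotated start, and the window listed first is printed where a gene has 2. Capitals mark GGAAGT, the core letters that ETS factors bind, and ACAAAG, a core of SOX sites, on either strand; both factor families act in endothelium. Prox1 lies on the minus strand of chr1:190170778-190171077, Mmrn1 on the plus strand of chr6:60944067-60944366, Chst4 on the minus strand of chr8:110039285-110039584 and Fut7 on the plus strand of chr2:25422992-25423291.
Prox1: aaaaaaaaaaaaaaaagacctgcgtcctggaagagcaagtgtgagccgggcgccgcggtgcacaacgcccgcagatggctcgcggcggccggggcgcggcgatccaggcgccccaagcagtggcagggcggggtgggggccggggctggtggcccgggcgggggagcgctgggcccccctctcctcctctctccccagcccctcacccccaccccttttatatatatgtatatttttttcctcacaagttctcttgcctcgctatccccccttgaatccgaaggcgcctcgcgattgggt
Mmrn1: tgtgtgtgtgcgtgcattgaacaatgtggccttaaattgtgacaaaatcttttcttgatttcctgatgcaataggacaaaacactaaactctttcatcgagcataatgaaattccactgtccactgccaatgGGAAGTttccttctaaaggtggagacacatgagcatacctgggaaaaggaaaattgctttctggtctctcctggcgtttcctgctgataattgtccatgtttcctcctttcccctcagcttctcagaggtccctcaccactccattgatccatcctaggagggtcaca
Chst4: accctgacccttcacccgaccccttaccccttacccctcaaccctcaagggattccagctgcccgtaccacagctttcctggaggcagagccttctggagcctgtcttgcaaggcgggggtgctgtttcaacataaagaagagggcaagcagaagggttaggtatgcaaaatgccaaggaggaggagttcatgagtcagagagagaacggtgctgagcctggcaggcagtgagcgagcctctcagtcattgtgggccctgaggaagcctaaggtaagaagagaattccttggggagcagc
Fut7: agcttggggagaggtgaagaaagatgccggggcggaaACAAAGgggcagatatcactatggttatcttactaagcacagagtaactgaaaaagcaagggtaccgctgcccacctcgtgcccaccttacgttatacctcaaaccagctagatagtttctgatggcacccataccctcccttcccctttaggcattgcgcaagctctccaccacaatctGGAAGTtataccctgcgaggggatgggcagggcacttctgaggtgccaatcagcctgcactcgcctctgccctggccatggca
In the printed windows, GGAAGT occurred once for Mmrn1 and Fut7, ACAAAG occurred once for Fut7, and neither occurred for Prox1 and Chst4. The second windows of Prox1 and Fut7, not printed, each held ACAAAG once. Of all 32851 windows, 23.8% held GGAAGT and 18.7% held ACAAAG. By gene, counting any of its windows, GGAAGT was present in 24.7% of the 807 genes higher in LECs that have a window, in 25.9% of the 656 lower genes and in 31.4% of the 9057 genes tested. ACAAAG was present in 18.8% of the higher genes, in 20.4% of the lower genes and in 16.5% of the genes tested.

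Lymphatic identity genes were the list with the largest share of higher calls. Of 25 tested, 20 were higher in LECs and 1 was lower, with a median difference of 3.00 against 0.04 for all genes. Ackr4, a scavenging receptor for CCL19 and CCL21, gave 11.97, 11.71 and 12.07 in LECs and 7.59, 7.12 and 6.23 in BECs. Mmrn1, which encodes multimerin, gave 13.73, 13.78 and 14.00 in LECs and 9.53, 9.64 and 8.54 in BECs. The BEC values of Mmrn1 were lowest in replicate 3, as were those of Prox1, Lyve1 and Ackr4, and no LEC value came near them. The differences were 4.94 ± 0.33 for Ackr4 and 4.60 ± 0.29 for Mmrn1, or 30.7-fold and 24.3-fold. Ackr4 had 4 probes above background, whose differences ranged from 0.10 to 4.94, and their mean differed by 3.35. Tbx1, a T-box factor needed for lymphatic growth, and Itga2b, an integrin chain also known from platelets, were 28.1-fold and 28.0-fold higher. Of 5 platelet and megakaryocyte markers tested, 1 was called higher in LECs (Itga2b) and 2 lower (Ppbp, -1.46, and Treml1, -1.25). The call of Treml1 was lost without LEC replicate 2 or BEC replicate 2 or 3. The platelet chemokine gene Pf4 was not called (9.35 in LECs, 9.54 in BECs, adjusted p = 0.784). Among the 20 higher genes, 5 had a higher mean in FRCs than in LECs, Pdpn and the glycoprotein gene Thy1 among them. The lower gene was Ccl21a, which is described with the chemokine genes.

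Blood endothelial identity genes showed the opposite split, with 20 of 25 lower in LECs and 1 higher (median -2.63). Esm1, a secreted proteoglycan of endothelial tip cells, gave 9.52, 10.27 and 10.52 in LECs and 14.32, 14.41 and 14.13 in BECs. Flt1, which encodes VEGF receptor 1, gave 12.14, 13.74 and 12.13 in LECs and 15.24, 15.41 and 15.43 in BECs. No LEC value reached a BEC value in either gene, and for Flt1 LEC replicate 2 was the high one. Esm1 was 18.1-fold lower in LECs. Flt1 was 6.45-fold lower, a log2 difference of -2.69 ± 0.42 with all replicates and of -3.20 without replicate 2 of both cell types. Pltp, a phospholipid transfer protein, averaged 6.72 ± 0.56 in LECs and 10.72 ± 0.14 in BECs (SD, n = 3 each). The matrix gene Sparcl1 averaged 6.52 in LECs and 10.10 in BECs, and both genes were called. The sialomucin gene Cd34 was lower in LECs by 10.6-fold and the arterial factor gene Sox17 by 9.95-fold. Bmx, a kinase of arterial endothelium, was the 1 gene higher in LECs, by 2.17-fold, and was not called without LEC replicate 3 (0.89).

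Arterial, capillary and venous genes were mostly lower in LECs. Of 24 arterial genes tested, 13 were lower and 3 higher (median -1.42), and of 23 capillary and venous genes 15 were lower and 3 higher (median -1.98). Gja5, the arterial connexin 40, gave 5.94, 6.91 and 6.97 in LECs and 10.01, 10.42 and 10.59 in BECs, a difference of -3.74 ± 0.31. Car4, a carbonic anhydrase of capillaries, gave 9.35, 11.12 and 8.29 in LECs and 13.00, 13.60 and 12.93 in BECs, and its highest LEC value was again replicate 2. Its difference of -3.59 was -4.36 without LEC replicate 2 and -2.94 without LEC replicate 3. The groups of both Gja5 and Car4 stayed apart. Aplnr, the apelin receptor of venous and angiogenic endothelium, was 20.5-fold lower in LECs, by -4.36 on the log2 scale with all replicates and -5.02 without LEC replicate 2, and von Willebrand factor (Vwf) 9.35-fold lower. Nr2f2, which encodes the factor COUP-TFII of veins and lymphatics, ran the other way and was 4.44-fold higher in LECs.

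Genes common to all endothelium differed less. Of 20 tested, 5 were lower in LECs and 0 were higher (median -0.70). The junction molecule gene Esam was 3.46-fold lower, the lectin gene Clec14a at least 2.33-fold, the angiopoietin receptor gene Tek 2.63-fold, and Sox18 and Sox7, members of one SOX subfamily, 2.11-fold and 2.11-fold. Sox18 was not called without LEC replicate 1 (-0.99), nor Sox7 without LEC replicate 3 (-0.99) or BEC replicate 3. Cdh5, the VE-cadherin gene, averaged 13.34 ± 0.22 in LECs and 14.03 ± 0.17 in BECs (SD, n = 3 each), which was not a 2-fold difference. The FRC means of Cdh5 and Pecam1 were 7.61 and 7.31.

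HEV genes and genes of L-selectin ligand synthesis were more often lower than higher in LECs. Of 27 tested, 11 were lower in LECs and 2 were higher (median -0.45). Chst4, the sulfotransferase that makes the HEV form of the ligand, gave 5.65, 6.10 and 6.12 in LECs and 10.98, 8.95 and 11.18 in BECs. The LEC values were at or near background, 2 of 3 above it, and BEC replicate 2 was more than 2 units below the other BEC replicates, but the groups stayed far apart. The difference was -4.41 ± 0.57 (adjusted p = 0.00139), -5.12 without BEC replicate 2 and -5.20 without replicate 2 of both cell types. Fut7, the fucosyltransferase of the same sugar, gave 6.08, 6.10 and 6.30 in LECs and 10.22, 8.52 and 10.27 in BECs, with the same low replicate 2 in BECs, and differed by -3.51 ± 0.45. Emcn, an endothelial mucin, was 6.08-fold lower in LECs.

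The higher genes of this list were Madcam1 and Ddah1. Madcam1, the mucosal addressin, gave 11.24, 11.20 and 11.27 in LECs and 10.14, 8.59 and 9.79 in BECs. The LEC values were nearly equal, BEC replicate 2 was the lowest, and the difference of 1.73 ± 0.37 was 1.29 without replicate 2 of both. Ddah1, an enzyme that degrades methylated arginine, was 3.72-fold higher. Ltbr, the lymphotoxin beta receptor that HEVs need, gave 9.45, 9.12 and 9.17 in LECs and 9.20, 9.90 and 9.18 in BECs, and the groups overlapped (adjusted p = 0.557).

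Leukocyte adhesion molecules went both ways, with 7 of 20 higher in LECs and 5 lower (median 0.26). Vcam1, the ligand of alpha4 integrins, gave 14.07, 14.34 and 13.97 in LECs and 12.80, 11.93 and 13.08 in BECs. All LEC values of Vcam1 were higher, and the difference of 1.52 ± 0.30 was 1.08 without replicate 2 of both cell types, while differences of its 3 probes ranged from 0.32 to 1.52. Selp, which encodes P-selectin, averaged 11.96 ± 0.19 in LECs and 14.17 ± 0.20 in BECs (SD, n = 3 each) and was 4.63-fold lower in LECs. Sele, the E-selectin gene, gave 9.39, 9.60 and 9.96 in LECs and 11.20, 11.01 and 11.84 in BECs and was 3.26-fold lower. Both selectins were thus lower in LECs than in BECs in every replicate, though well above background in LECs. Icam1, the ligand of LFA-1, averaged 13.92 ± 0.13 in LECs and 14.48 ± 0.31 in BECs (SD, n = 3 each) and missed the threshold (adjusted p = 0.0539). Alcam, which binds CD6 on T cells, was 11.6-fold higher in LECs, and Clec1b, the podoplanin receptor of platelets and dendritic cells, at least 4.74-fold higher. Jam2, a tight junction adhesion molecule, was 17.8-fold lower, the checkpoint ligand gene Cd200 12.1-fold and the adhesion gene Mcam 6.21-fold.

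Of 10 VEGF ligands and receptors measured, 2 were higher and 3 lower in LECs. VEGF-C acts on lymphatic endothelium through Flt4 (VEGF receptor 3), while VEGF-A acts on blood endothelium through Kdr. Flt4 gave 9.17, 8.83 and 9.24 in LECs and 7.04, 7.01 and 6.81 in BECs and was 4.36-fold higher in LECs without overlap. The ligand gene Vegfc, by contrast, gave 8.21, 9.02 and 8.39 in LECs and 10.70, 11.19 and 10.84 in BECs and was 5.16-fold lower. Neuropilin 1 (Nrp1), a co-receptor for VEGF-A, was 8.03-fold lower in LECs, whereas neuropilin 2 (Nrp2), the co-receptor for VEGF-C, averaged 8.24 in LECs and 8.40 in BECs (adjusted p = 0.319). Vegfb was 2.48-fold higher in LECs and Vegfa 1.91-fold, the second below the fold required. Kdr was read from a dim probe that was not above background in any LEC replicate and averaged 6.00 in BECs. Pgf averaged 6.94 in LECs and 7.65 in BECs, and Vegfd 5.77 in LECs and 5.52 in BECs, neither of them called.

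Of the 8 Tie, angiopoietin and apelin genes measured, 3 were lower and 1 was higher in LECs. Besides Tek and Aplnr, the phosphatase gene Ptprb, which restrains Tie2 signaling, was 2.02-fold lower, a call lost without LEC replicate 3 (-0.93) or BEC replicate 2 (-0.94). Tie1 averaged 11.80 in LECs and 12.45 in BECs, Angpt2 14.13 in LECs and 13.51 in BECs, Angpt1 5.75 in LECs and 5.22 in BECs, and Angptl4 15.12 in LECs and 14.92 in BECs, and none of these was called. The 2 probes of Angpt2 differed in sign, as did those of Angptl4. Svep1, an extracellular protein that activates the TIE1 receptor, was at least 1.55-fold higher in LECs, where 2 of 3 replicates were above background. It was not called without LEC replicate 1 or 2 (0.84 each) or BEC replicate 1 (1.02) or 3 (0.97), and its FRC mean was 12.14.

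Notch pathway genes were lower in LECs where they were called, 8 of 18 against 0 higher (median -1.09). Notch4, the endothelial Notch receptor, gave 10.85, 12.48 and 11.13 in LECs and 14.39, 14.38 and 14.66 in BECs, again with LEC replicate 2 highest and no overlap, a 7.96-fold difference. Mfng, a glycosyltransferase that tunes Notch receptors, was 7.1-fold lower, the target gene Hey1 5.67-fold, the ligand gene Jag2 4.49-fold and the ligand gene Dll4 3.09-fold. The receptor gene Notch1, named after its value was seen, averaged 11.64 in LECs and 12.40 in BECs, less than a 2-fold difference.

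Of 41 endothelial transcription factors tested, 11 were higher and 9 lower in LECs (median 0.04). Next to Prox1 and Tbx1, Gata6 was 11.6-fold higher in LECs and the homeobox gene Hoxd10 6.9-fold. Foxc2, which is required for lymphatic valves, averaged 9.09 in LECs and 5.57 in BECs, where 1 of 3 replicates was above background, and was called higher. Hoxd10 gave 12.35, 12.41 and 12.54 in LECs and 9.77, 9.60 and 9.58 in BECs, with FRCs near background at 5.57. On the other side Sox17 gave 8.93, 10.78 and 9.42 in LECs and 13.15, 13.00 and 12.93 in BECs. Neither gene overlapped between the groups. The T-box gene Tbx3 was 8.25-fold lower in LECs, the basic helix-loop-helix gene Tcf15 6.89-fold, the hypoxia factor gene Epas1 6.7-fold and Mef2c 3.77-fold. The difference of Tbx3 was -3.04 with all replicates, -3.65 without LEC replicate 2 and -0.77 on the least of its 4 probes.

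Scavenger and endocytic receptors, which clear ligands from lymph, were mostly higher in LECs, 12 of 21 against 3 lower (median 1.06). Mrc1, the mannose receptor, gave 13.12, 13.07 and 13.12 in LECs and 7.93, 8.59 and 7.35 in BECs. Stab2, a hyaluronan scavenger receptor, gave 14.31, 14.33 and 14.42 in LECs and 10.24, 10.44 and 9.23 in BECs. The LEC replicates were nearly equal in both genes and far above BECs, by 35.4-fold and 20.8-fold. The inhibitory Fc receptor gene Fcgr2b was 15.3-fold higher, with a difference of 2.41 on its second probe. The scavenger receptor gene Msr1 averaged 9.38 in LECs and 5.64 in BECs, where 1 of 3 replicates was above background, and was called higher. The lectin gene Clec4g averaged 14.33 in LECs and 10.43 in BECs and was called higher. Stab1, a relative of Stab2, was 6.17-fold higher on its brightest probe, but another of its 3 kept probes differed by -2.08, so its direction depends on the probe. Scarb1, the HDL receptor, was 10.3-fold lower in LECs (-1.31 on its second probe). The caveolar genes Cav2 and Cavin1 were 4.15-fold and 2.26-fold lower, Cavin1 not being called without BEC replicate 2 (-0.92). Macrophages carry several of these receptors too. Of 21 myeloid markers with a probe, 8 were not above background in any LEC replicate. Of the 12 tested, 2 were called higher in LECs (Aif1, 2.02, and Cd14, 1.22) and 1 lower (Fcer1g, -1.17), with a median difference of 0.45. The call of Fcer1g was lost without LEC replicate 3. The summed linear signal of the list was 5820-7749 in LECs and 4049-5803 in BECs. Of the 21 markers, 11 had a mean above background in LECs and 8 in BECs. Lyz1, the first gene of the list, averaged 10.57 in LECs and 10.04 in BECs and was not called. Itgam (mean 4.95 in LECs, 4.99 in BECs) and Adgre1 (5.11 in LECs, 4.99 in BECs) were at background. The part of myeloid cells in these differences was not tested.

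**Figure D3:**
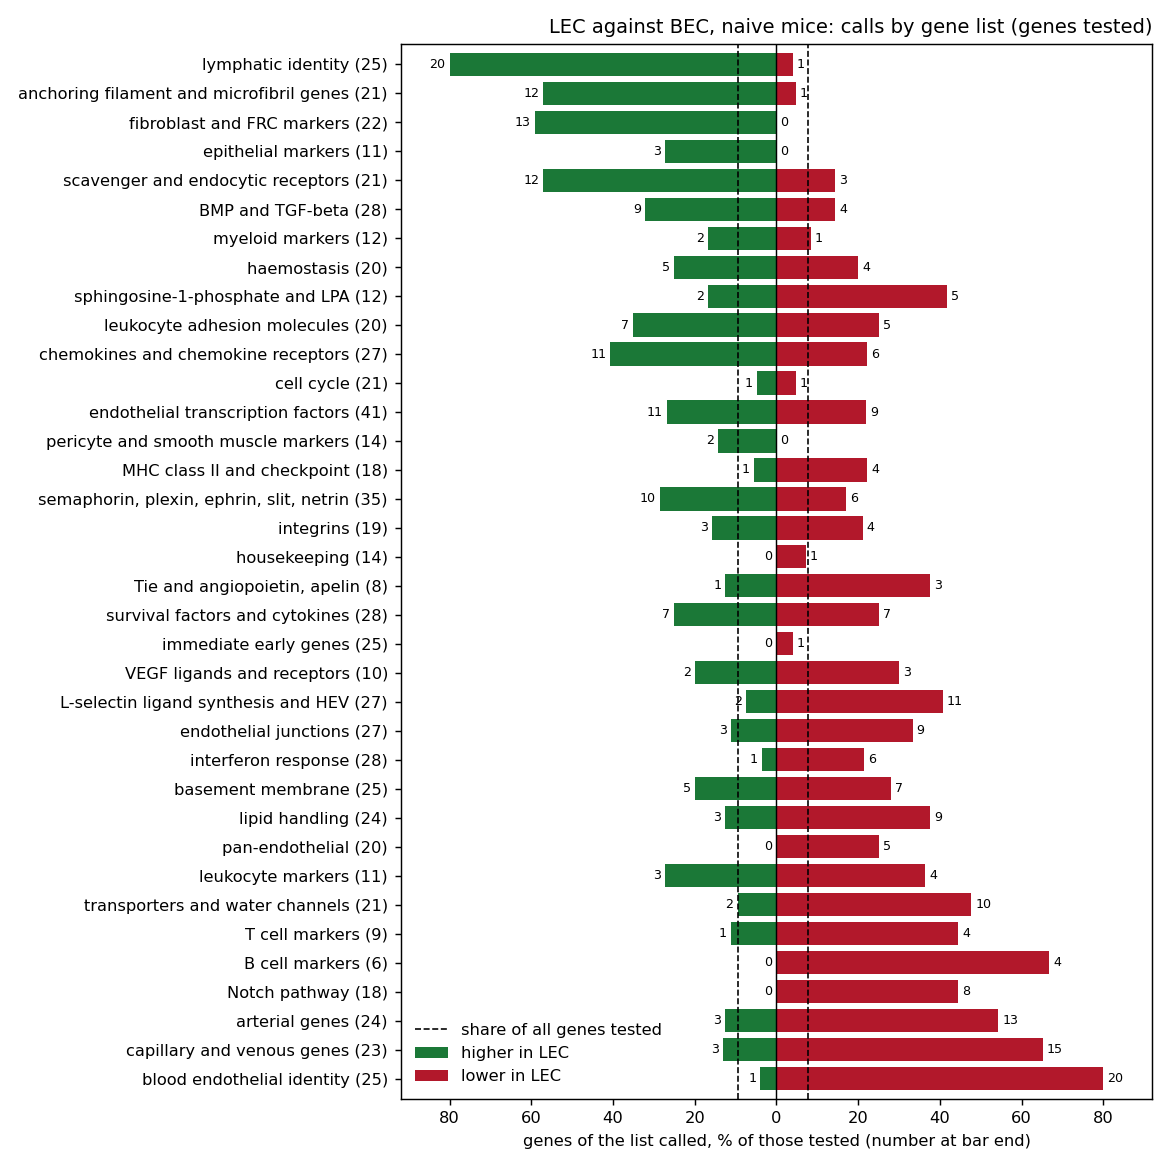
Share of tested genes of each list that were called higher (green, left) or lower (red, right) in naive LECs relative to naive BECs, in percent, with the number of genes at the bar ends and the number tested in parentheses. Dashed lines mark the shares over all genes, 9.46% and 7.73%; lymphatic identity genes lie at the top and blood endothelial identity genes at the bottom.

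Chemokine genes and receptors were called in both directions, 11 of 27 higher and 6 lower in LECs (median 0.10). Ccl21a, the CCR7 ligand that guides T cells and dendritic cells, gave 14.31, 14.10 and 13.79 in LECs and 15.60, 14.57 and 15.74 in BECs. The LEC values were lower than every BEC value, though BEC replicate 2 came close, and the difference of -1.24 ± 0.32 (adjusted p = 0.0243) was -1.62 without replicate 2 of both. It missed the rule without LEC replicate 2 (-1.26) or 3 (-1.10) or BEC replicate 1 (-1.09) or 3 (-1.02). BEC replicates 1 and 3 were above 15.58, and signals this high limit what can be said of the size. The probe of Ccl21c, a nearly identical copy, behaved alike (-1.60), and the 2 copies may share signal. Cxcl9, an interferon-induced chemokine, averaged 12.89 ± 0.76 in LECs and 13.63 ± 0.42 in BECs (SD, n = 3 each), with overlap. Next to Ackr4, the decoy receptor gene Ackr2 was 9.85-fold higher in LECs, whereas Ackr1, the venular receptor that carries chemokines across endothelium, was 5.78-fold lower. Ccl20, Ccl7 and Ccl9 were 10.5-fold, 10.8-fold and 7.47-fold higher, with 2 of 3 BEC replicates above background for Ccl20 and Ccl9. Of these, Ccl7 and Ccl9 had still higher means in FRCs (13.53 and 9.90), as did 7 of the 11 higher chemokine genes. Cxcr4 and its ligand gene Cxcl12 were 9.26-fold and 4.15-fold lower in LECs, and Cx3cl1 3.94-fold. The 4 probes of Cxcl12 ranged from -3.22 to -0.82.

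Survival factors and cytokines were called 7 times in each direction among 28 genes. Il7, the T cell survival factor, gave 11.55, 11.44 and 11.53 in LECs and 8.66, 8.26 and 8.62 in BECs, 7.96-fold higher in LECs, with an FRC mean of 11.18. Il33, an alarmin, gave 12.90, 13.09 and 12.76 in LECs and 9.34, 9.56 and 8.90 in BECs and was 12.6-fold higher. Neither gene overlapped between the groups. The pentraxin gene Ptx3 averaged 10.28 in LECs and 5.35 in BECs, where 1 of 3 replicates was above background, and was called higher. The BAFF gene Tnfsf13b was 4.57-fold higher and Csf1, the macrophage growth factor, 2.93-fold. These 3 genes had FRC means of 13.05, 12.56 and 11.13, in this order. Lower in LECs were the KIT ligand gene Kitl (7.36-fold), the granulocyte factor gene Csf3 (4.38-fold), the TNF receptor gene Tnfrsf1b (4.12-fold), Il15 (3.69-fold) and Tnfsf15 (at least 2.61-fold, with 2 of 3 BEC replicates above background). Csf3 was not called without LEC replicate 1 or 2 or BEC replicate 1 or 3 (-1.77, -2.20, -1.99 and -1.71), and its second probe differed by -0.50. Tnfsf15 kept the call without BEC replicate 2 (-2.87) and lost it without any other replicate (-2.12 to -1.57).

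Of 12 genes of sphingosine-1-phosphate and lysophosphatidic acid (LPA) metabolism, 5 were lower and 2 higher in LECs. The lipid phosphatase genes Plpp1 and Plpp3, which degrade LPA, were 4.05-fold and 4.88-fold lower, and the LPA receptor genes Lpar4 and Lpar6 8.86-fold and 3.58-fold. Lpar1 ran the other way, 3.51-fold higher in LECs. The sphingosine-1-phosphate phosphatase gene Sgpp1 was 2.42-fold higher and Sgpp2 at least 2.87-fold lower. Differences of S1pr2 (0.88), Sgpl1 (0.60), Sphk1 (0.55), Plpp2 (0.53) and Sphk2 (0.10) did not pass the rule. The S1P exporter gene Spns2 was below background in both.

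Junction genes were lower more often than higher in LECs, 9 against 3 of 27 (median -0.50). Cldn11, a claudin, gave 15.19, 15.22 and 15.36 in LECs and 12.15, 11.63 and 12.04 in BECs and was 9.99-fold higher without overlap. The adhesion genes Jam3 and Nectin2 were 2.84-fold and 2.45-fold higher. Besides Jam2 and Gja5, the claudin gene Cldn15 was called lower (-2.24), the connexin gene Gjc1 was 4.56-fold lower and the PDZ protein gene Pdzd2 4.29-fold. The difference of Cldn15 was -2.88 without LEC replicate 2, and its call was lost without LEC replicate 1 (-2.01), LEC replicate 3 (-1.83) or BEC replicate 3 (-2.29). Jam2 gave 6.45, 8.23 and 6.57 in LECs and 11.06, 11.44 and 11.22 in BECs, so that Jam2 and Jam3 differed in opposite directions.

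Basement membrane genes were called 5 times higher and 7 times lower among 25 (median -0.52). Chains of type IV collagen differed in direction. Col4a5 was 15.2-fold higher in LECs and Col4a6 at least 1.66-fold higher, while Col4a2 was 2.99-fold lower. Col4a5 gave 9.96, 10.42 and 9.98 in LECs and 6.26, 6.34 and 5.97 in BECs, and Col4a2 gave 13.35, 13.78 and 13.36 in LECs and 14.99, 15.30 and 14.92 in BECs, both without overlap. The laminin chain gene Lamb3 was 17.7-fold higher (4.15, and 4.74 without BEC replicate 2), with 2 of 3 BEC replicates above background, and the netrin gene Ntn4 4.55-fold. The collagen genes Col8a1 and Col15a1 were 11.7-fold and 6.28-fold lower. Lama4 was called higher on its brightest probe (1.09), its other probe differed by -0.05, and the call was lost without BEC replicate 1 (0.88). FRC means of Lamb3, Col4a5 and Col4a6 were 11.61, 10.69 and 7.20, each above the LEC mean.

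Anchoring filament and microfibril genes, which tether lymphatic vessels to matrix, were higher in LECs in 12 of 21 cases and lower in 1 (median 1.73). Tnc, which encodes tenascin C, gave 14.66, 14.17 and 14.38 in LECs and 10.59, 11.24 and 10.07 in BECs, 13.7-fold higher in LECs and also above the FRC mean of 11.07. Together with Mmrn1 it was 1 of 2 higher genes of the list whose LEC mean exceeded the FRC mean. The other 10 were more abundant in FRCs, such as Lum (9.60 in LECs, 6.86 in BECs and 15.19 in FRCs), Mfap5 (7.76 in LECs, 5.22 in BECs with 1 of 3 replicates above background, and 13.95 in FRCs) and Fn1 (11.48 in LECs, 9.05 in BECs and 14.51 in FRCs). Fbln2 was the lower gene, by 3.23-fold.

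FRC markers as a whole were higher in the LEC samples, and their part in these matrix and chemokine differences was not tested. Of 22 FRC and fibroblast markers, 13 were called higher in LECs and 0 lower. Their summed linear signal ranged over 43750-53700 in LECs, 8789-22270 in BECs and 438300-475900 in FRCs, with BEC replicate 2 the highest of the BECs. The first marker, Pdgfra, averaged 9.03 in LECs, 7.38 in BECs and 14.22 in FRCs, and was not called without LEC replicate 1 or 2 or BEC replicate 1 or 3 (1.36 to 1.52). Over all genes higher in LECs, 407 (38.3%) had a higher mean in FRCs than in LECs, against 43.6% of all genes tested, and 270 had an FRC mean at or below the BEC mean. Over all lower genes, 105 (12.1%) had a higher mean in FRCs than in BECs, against 44.6% of all genes tested. Choosing genes for a high mean in LECs or BECs lowers such shares by itself, so they are no measure of FRC RNA. Prox1, Lyve1, Mmrn1, Stab2, Mrc1 and Ackr4 all had FRC means more than 5 units below those of LECs.

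Guidance genes of the semaphorin, plexin, ephrin, slit and netrin families were called 10 times higher and 6 times lower among 35 (median -0.02). Sema3a, a repellent that shapes lymphatic valves, gave 11.56, 11.62 and 11.36 in LECs and 6.51, 6.55 and 6.19 in BECs, 34.3-fold higher in LECs. Its second probe differed by 2.24. Reln, which encodes reelin, gave 13.89, 13.87 and 13.65 in LECs and 9.60, 9.63 and 8.85 in BECs and was 21.7-fold higher. The LEC and BEC values of both genes stayed more than 3 units apart. Slit2, a repellent ligand, averaged 9.21 in LECs and 5.59 in BECs, where 1 of 3 replicates was above background, and the netrin receptor gene Unc5c was 8.38-fold higher. Both were called on their brightest probe, and other probes differed by as little as 0.30 for Slit2 and 0.72 for Unc5c. Another class 3 semaphorin gene, Sema3g, was 11.4-fold lower in LECs and Sema6d 8.89-fold, followed by the ephrin gene Efnb1 (3.86-fold), Sema7a (2.79-fold) and the Eph receptor gene Ephb1 (2.38-fold, with -0.28 on its second probe). Of the LEC replicates 2 of 3 were above background for Sema3g.

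BMP and TGF-beta genes were called 9 times higher and 4 times lower in LECs among 28 (median 0.62). The ligand genes Gdf10, Tgfb3 and Bmp7 were 14.1-fold, 10.7-fold and at least 4.82-fold higher, and the activin antagonist gene Fst 14.0-fold. Tgfb3 differed by 3.42 with all replicates and by 4.09 without BEC replicate 2. The receptor gene Acvrl1 (ALK1), the inhibitory Smad6 and the target genes Id1 and Id3 were the 4 lower genes. Id1 gave 9.51, 10.79 and 8.92 in LECs and 12.78, 13.15 and 12.78 in BECs, and Id3 gave 9.19, 9.16 and 9.22 in LECs and 11.20, 11.38 and 11.19 in BECs. Acvrl1 was 3.52-fold lower, Smad6 4.18-fold with 2 of 3 LEC replicates above background, Id1 8.94-fold and Id3 4.18-fold.

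Among 20 hemostasis genes 5 were higher and 4 lower. F8, coagulation factor VIII, gave 14.40, 14.64 and 14.48 in LECs and 11.66, 11.29 and 11.55 in BECs, 8.03-fold higher, while its carrier Vwf gave 9.84, 10.56 and 10.26 in LECs and 13.07, 13.70 and 13.56 in BECs. These partners in plasma were therefore highest in different endothelia, without overlap. The plasminogen activator gene Plat was 4.54-fold higher in LECs and the protein C receptor gene Procr 2.65-fold. F5 averaged 7.12 in LECs and 5.47 in BECs, where 1 of 3 replicates was above background, and its second probe differed by 0.64. The ecto-nucleotidase genes Nt5e and Entpd1 were 7.53-fold and at least 1.10-fold lower. The second probe of Nt5e differed by -1.76. Of 19 integrin genes 3 were higher and 4 lower. Itga9, needed for lymphatic valves, was 7.08-fold higher, and the integrin activator gene Fermt3 averaged 7.75 in LECs and 5.65 in BECs, where 1 of 3 replicates was above background. In the lower direction, Itga6, Itgb5, Itgb7 and Itga1 were 4.42-fold, 4.41-fold, 2.2-fold and 2.18-fold lower, with 1 of 3 LEC replicates above background for Itgb7.

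Lipid handling and transport genes were lower in LECs in many cases, 9 of 24 and 10 of 21, against 3 and 2 higher (medians -0.53 and -0.87). Gpihbp1, which holds lipoprotein lipase on capillaries, gave 10.94, 12.95 and 10.57 in LECs and 14.02, 14.55 and 13.82 in BECs, with LEC replicate 2 about 2 units above the other LEC replicates but below all BEC values. Its difference of -2.65 was -3.38 without LEC replicate 2, and its call was lost without LEC replicate 1 (-2.37). Besides Pltp, the hormone-sensitive lipase gene Lipe was 5.59-fold lower (-0.95 on its second probe) and the fatty acid binding gene Fabp5 4.5-fold. The glycerol channel gene Aqp7 differed by -2.82 and was called, but with a single replicate left out the difference ranged from -3.80 (without LEC replicate 2) to -2.18 (without LEC replicate 3), and leaving out LEC replicate 1 or 3 or any BEC replicate lost the call. Higher were the lipoprotein receptor gene Vldlr (2.03-fold), the RNA editing gene Apobec1 (2.08-fold) and the homeobox gene Meox2 (2.21-fold). With 1 replicate left out, Vldlr was called only when BEC replicate 3 was the one left out, with 0.65 without BEC replicate 2, Meox2 only when BEC replicate 2 was, with 0.90 without BEC replicate 3, and Apobec1 was lost without LEC replicate 1 (0.98). Of the transporters, the drug efflux gene Abcc4 was 7.27-fold lower, the water channel gene Aqp11 5.07-fold and Slc26a10 at least 4.28-fold. The iron exporter gene Slc40a1 and the organic anion transporter gene Slco3a1 were 3.1-fold and 2.13-fold higher, and the call of Slco3a1 was lost without LEC replicate 1 (1.03) or 3 or BEC replicate 1 (1.16) or 2 (0.78).

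Among 18 genes of MHC class II and checkpoint function, 4 were lower and 1 higher (median -0.02). H2-Aa gave 7.83, 7.55 and 7.42 in LECs and 10.49, 9.12 and 9.88 in BECs, a difference of -2.23 ± 0.33, and H2-Eb1 was 3.45-fold lower. The class II transactivator gene Ciita was at least 1.89-fold lower (adjusted p = 0.0486) and H2-DMa 2.27-fold, while the protease gene Ctss was 2.43-fold higher. With 1 replicate left out, Ciita kept its call only when BEC replicate 2 was the one left out (-0.81 without BEC replicate 1), and H2-DMa lost it without LEC replicate 2 (-0.98) or 3 (-1.19) or BEC replicate 1 (-0.95) or 3 (-1.14). B and T cell markers moved in the same direction as these class II genes. Of 6 B cell markers tested 4 were lower in LECs, and of 9 T cell markers 4 were lower and 1 higher. Their summed signals were 1046-1143 in LECs and 1440-3294 in BECs for B cells, and 1856-2701 in LECs and 2607-3982 in BECs for T cells. Of 9 B cell markers with a probe, 2 had a mean above background in LECs and 6 in BECs. Cd79b, the first of them, averaged 9.25 in LECs and 8.85 in BECs and was not called, while Ms4a1 and Pax5 were at background in both. The part of lymphocyte RNA in the class II values was not tested.

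Interferon response genes were lower in 6 of 28 cases and higher in 1 (median -0.52). Rsad2, the antiviral protein viperin, was 4.42-fold lower in LECs, Ifit3 2.94-fold, Tgtp1 2.93-fold and Oasl2 2.64-fold, while Ifi27l2a was 3.14-fold higher. Cell cycle genes (1 higher and 1 lower of 21), immediate early genes (0 and 1 of 25) and housekeeping genes (0 and 1 of 14) were called no more often than all genes. The housekeeping call was the transferrin receptor gene Tfrc (-1.10), lost without LEC replicate 3 (-0.98) or BEC replicate 2 (-0.96).

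The 15 largest differences in each direction held genes of many roles. Mmp9, a gelatinase, gave 11.85, 12.58 and 12.47 in LECs and 6.41, 6.56 and 6.11 in BECs, the largest difference in the higher direction at 5.94 ± 0.23, or 61.2-fold. The collagenase gene Mmp13 gave 10.85, 10.64 and 11.45 in LECs and 6.09, 5.23 and 5.45 in BECs, where 1 of 3 replicates was above background. These values are of its brightest probe, which differed by 5.39, while its second probe differed by 1.16. Both metallopeptidases had FRC means well below those of LECs, at 7.90 and 6.07. Ripor3 averaged 11.57 in LECs and 6.11 in BECs on its brightest probe (2 of 3 BEC replicates above background), while the least of its 3 probes differed by 0.81. The actin-severing gene Scin averaged 11.29 in LECs and 5.87 in BECs, and the ligand gene Bmp8a 10.78 in LECs and 5.53 in BECs, with 1 of 3 BEC replicates above background for each. The adhesion gene Sdk1 was 36.4-fold higher, Popdc2 32.0-fold and the solute carrier gene Slc45a3 28.6-fold. Klrb1f, a lectin-like receptor gene of the natural killer gene complex, and Col22a1, a collagen gene, were at background in all BEC replicates, and so were at least 32.4-fold and 24.9-fold higher in LECs. Pdpn, Mrc1, Sema3a, Ackr4 and Ptx3 complete this set. FRC means exceeded those of LECs for Pdpn and Ptx3, and Sdk1 was alike in LECs (11.63) and FRCs (11.61).

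In the other direction, Fam167b gave 6.49, 6.87 and 6.80 in LECs and 11.74, 11.08 and 11.57 in BECs, the largest difference at -4.74 ± 0.20, or 26.8-fold lower. Ssu2 was 24.7-fold lower, Syt15, a synaptotagmin, 22.5-fold, the aldo-keto reductase gene Akr1c19 20.7-fold, the complement protease gene Masp1 20.7-fold and the lipogenic gene Thrsp 20.4-fold. Efhd1, Samd12, Magix, the lipoxygenase gene Alox12 and Tmem255b lay between 19.8-fold and 17.2-fold lower. Of the LEC replicates, 1 of 3 was above background for Akr1c19 and Samd12 and 2 of 3 for Magix. The less changed of several probes differed by -0.92 for Efhd1, -1.02 for Alox12, -1.09 for Thrsp and -1.54 for Jam2. For Samd12 and Syt15 that probe differed by -2.26 and -2.42. Chst4, Aplnr, Esm1 and Jam2, given above, complete this set. For Aplnr, Thrsp, Jam2 and Tmem255b the highest LEC value was replicate 2, and their differences were -4.80, -4.86, -4.63 and -4.81 without replicate 2 of both cell types. Tmem255b differed by -3.49 without LEC replicate 1. FRCs were near the BEC level in Akr1c19 (9.68), Masp1 (10.25) and Efhd1 (10.42).

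**Figure D4:**
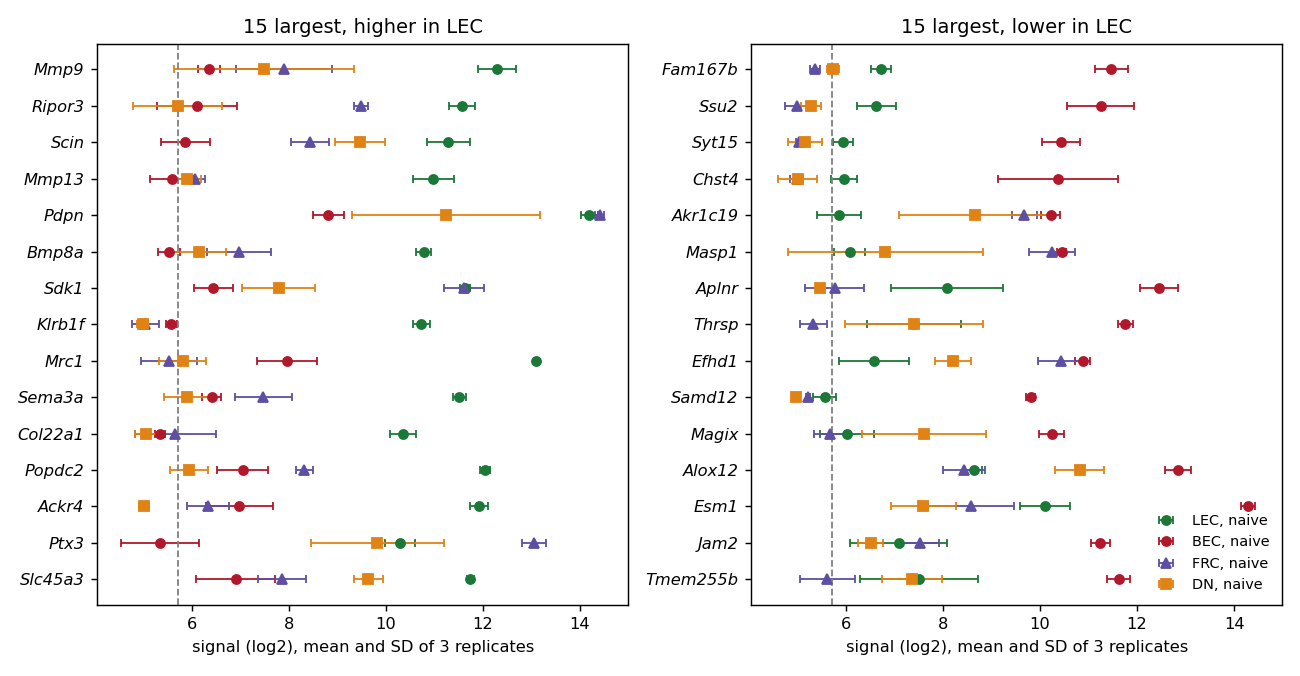
Mean log2 signal with SD over 3 replicates in naive LECs, BECs, FRCs and DN cells for the 15 genes with the largest differences higher in LECs (left) and lower in LECs (right), with a dashed line at the background level. Klrb1f, Col22a1 and Mrc1 were high in LECs alone among the 4 fractions, whereas Pdpn and Ptx3 were higher in FRCs and Sdk1 about as high.

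Markers of other cells gave a mixed picture. Among 11 leukocyte markers tested 3 were higher in LECs, led by the oxidase subunit gene Cyba (13.98 in LECs and 12.42 in BECs), and 4 were lower, led by the actin-bundling gene Lcp1 (6.32 in LECs and 9.22 in BECs). The hemoglobin gene Hba-a1 gave 13.95, 14.59 and 12.76 in LECs and 15.64, 14.78 and 15.01 in BECs, all LEC values being lower, but missed the threshold (adjusted p = 0.0585). Of 11 epithelial markers 3 were higher in LECs and 0 lower. The keratin gene Krt14 averaged 12.41 in LECs, 8.18 in BECs and 14.79 in FRCs (a difference of 4.23, 5.33 without BEC replicate 2 and 3.62 without BEC replicate 3), while Epcam was at background in LECs (mean 4.84) and BECs (4.86). Of 14 pericyte and smooth muscle markers 2 were higher, among them Acta2 (14.10 in LECs, 12.63 in BECs and 15.75 in FRCs), which was not called without LEC replicate 1 or 2 or BEC replicate 1 or 3 (1.19 to 1.37). Of 7 adipocyte markers 3 were lower, and Adipoq averaged 6.41 in LECs and 8.45 in BECs (adjusted p = 0.052, not called). Of 6 Schwann cell markers 2 were higher in LECs (Mbp, 3.62, and Ngfr, 3.43) and 0 lower, and all 6 had positive differences. Both genes were called higher in tumor mice too. Mbp averaged 10.23 in LECs, 6.61 in BECs and 12.68 in DN cells, and the least of its 3 probes differed by 0.67. The part of these cells in the differences given here was not tested.

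The difference between LECs and BECs was largely present in tumor mice too, in samples that the naive comparison did not use but that lay on the same slides. There 889 of the same 11226 genes were higher in LECs (7.92%) and 502 were lower (4.47%). Of the 1062 genes higher in naive LECs, 1035 had a positive difference in tumor mice and 720 were called higher. Of the 868 lower genes, 861 had a negative difference and 409 were called lower, and 0 genes were called in opposite directions. The median difference of the 1062 was 1.47 in tumor mice and 1.76 in naive mice, and that of the 868 was -1.18 in tumor mice and -1.56 in naive mice. Prox1 differed by 5.26 in tumor mice, Lyve1 by 3.63, Chst4 by -3.11 and Ccl21a by -0.05. All 20 lymphatic identity genes called higher in naive mice were called higher in tumor mice, and 17 of the 20 lower blood endothelial genes were called lower, whereas 2 of the 13 higher FRC markers were called higher.

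No gene passed the test of a change of the difference itself. In limma, 0 genes had an adjusted p below 0.05 for the tumor minus naive change of the LEC-BEC difference (smallest adjusted p = 0.221), and 983 had an unadjusted p below 0.05. The Fc receptor gene Fcgr2b, picked out after its values were seen, differed by 3.93 in naive mice and by -0.45 in tumor mice, where BECs averaged 8.62 ± 1.99 (SD, n = 3). Its adjusted p for the change was 0.426, so the difference between both sets of mice was not established.

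**Figure D5:**
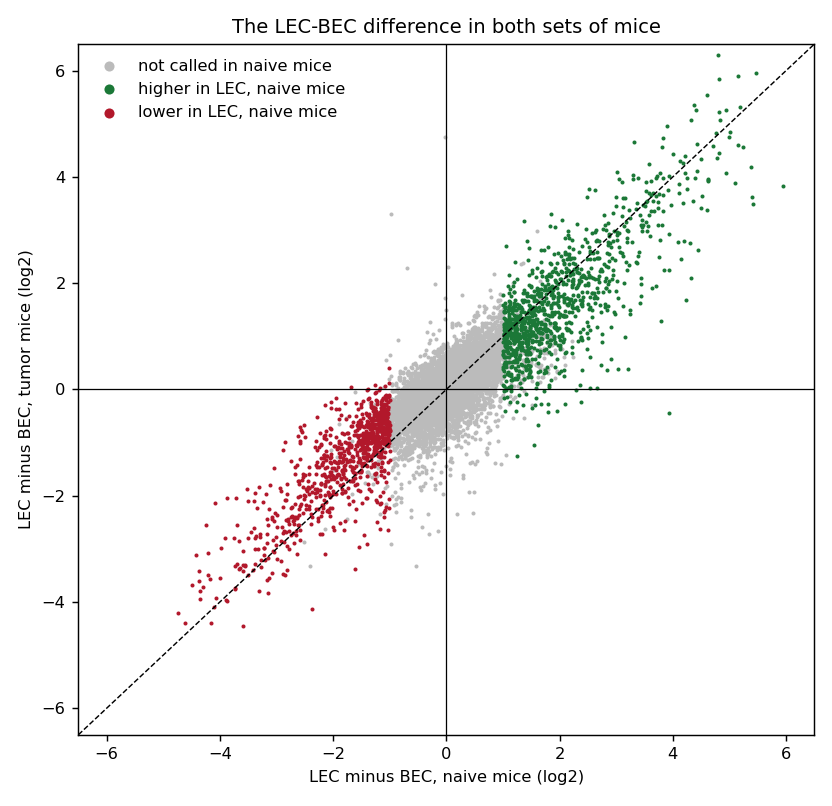
LEC minus BEC difference on the log2 scale in tumor mice (vertical axis) and in naive mice (horizontal axis) for 11226 genes, each a point, colored by the call in naive mice. The dashed line marks equal differences; 1035 of the 1062 green genes lie above 0 and 861 of the 868 red genes below 0 on the vertical axis.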

How the data were processed

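Total RNA of sorted lymph node stromal cells was hybridized to Illumina mouse bead arrays. The deposited value table holds log2 values, 1 column per strip, whose background correction and normalization are not given in the sources used here. The deposited bead files hold intensity values per bead on a linear scale and were used in alternatives only, after bead codes were linked to probes through their values (44489 of 45160 probes linked, median correlation 0.985).

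The value table was brought to common quantiles across its 48 strips before the 2 strips of each replicate were averaged. Of 45281 probes, 34885 were paired with 1 gene, 18 with several and 10378 with none in the platform annotation. The background level (5.72) was the mode of all values plus 3 robust SDs, and 17705 probes had a mean above it in a compared group. The brightest probe stood for each gene. limma 3.58.1 under R 4.3.3 was fitted to the 3 LEC and 3 BEC replicates, with Benjamini-Hochberg adjustment over 11226 genes, and a call needed an adjusted p under 0.05 and a log2 difference of at least 1. Tumor mice and the change of the difference were fitted likewise. The procedure was tested on simulated data. Fits were not blocked by replicate number, and a block for the slide could not be fitted. The number of arrays limits the precision.

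The rule for naming genes took the defining genes and sort antigens and the endothelial genes the study names. It took the 15 largest differences each way among called genes whose groups did not overlap. From lists with up to 12 tested genes it took all members, and from longer lists the 5 largest called each way. Not every gene of this rule is printed, and lists of other cell types are given mainly by counts. A few more were named after their values were seen: some markers at background, the called myeloid markers, Thy1, Notch1 and the S1P exporter gene. Members and lists were chosen with earlier results of these data known. Alternatives changed the normalization, the source files, the strips, the filter, the probe rule, the samples in the model, weights, the test and the threshold, and left out single replicates. Figures were drawn with matplotlib 3.10.9.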

Additional observations from a re-analysis of the deposited data

How the results depend on the processing

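Between naive LECs and BECs, 1930 genes were called, and the count ranged from 1300 to 2240 over the alternatives that kept a fold threshold. Bead intensities without background correction gave 1300 calls, 737 higher and 563 lower in LECs, and with normexp 1457. The log2 values as deposited gave 1945, the methods' t-test 1555 after Benjamini-Hochberg adjustment (1869 unadjusted). With the adjusted p alone, 3966 genes passed (2104 higher and 1862 lower). Leaving out single replicates gave 1754 to 2208 calls, 970 to 1252 higher and 770 to 956 lower. In tumor mice, the adjusted p alone gave 2160 calls (1391 higher and 769 lower) and an adjusted p under 0.01 gave 677 (558 higher and 119 lower). There, leaving out single replicates gave 741 to 1501 calls, 605 to 950 higher and 136 to 559 lower, with 741 without LEC tumor replicate 3, 903 without BEC tumor replicate 1 and 973 without LEC tumor replicate 1. The test of the tumor minus naive LEC-BEC difference gave 0 to 84 genes when single replicates were left out, 84 of them without BEC tumor replicate 3, 3 without LEC tumor replicate 3 and 1 each without LEC tumor replicate 1 or BEC naive replicate 2. The causes of these shifts were not tested.

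With the replicate number as a block, 1980 genes were called in naive mice (1087 higher and 893 lower), 1176 in tumor mice (828 and 348) and 0 for the change. For each gene, the deviation of a replicate from the mean of its group was taken. Over all genes, these deviations correlated between same-numbered LEC and BEC replicates at -0.09, 0.36 and 0.40 in naive mice. In tumor mice the correlations were -0.21, 0.19 and 0.11. The numbers were not taken as pairs in the main fits, although replicate 2 of both cell types had the highest summed gland signal in naive mice. Whether same-numbered pools share animals is not given by the labels and was not tested. Of the 312 genes named by the rule and tested, 238 were called (105 higher and 133 lower). Of these, 157 were called under all of up to 23 alternatives, 81 lost the call under at least 1, and 0 changed direction. Dim genes near the background level and genes close to a 2-fold difference, such as Vldlr and Ciita, were among those 81. Genes with larger differences were among them too. Lyve1 (3.00), Il7 (2.99), Vegfc (-2.37) and Selp (-2.21) lost the call in the model of the 4 naive groups alone. Krt14 (4.23) and Car4 (-3.59) lost it under the methods' t-test alone. Slide and cell type cannot be told apart under any alternative.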
